A study of Caenorhabditis elegans with 4 samples.

Results

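The HLH-30 binding sites on chromosome III of Caenorhabditis elegans were taken as every interval that the combined peak list places on that chromosome, which gave 584 of 2791 peaks. No measured value entered that choice. The peaks came from chromatin immunoprecipitation followed by sequencing (ChIP-seq), which recovers and sequences the DNA fragments crosslinked to a protein. All 4 libraries were from hermaphrodites of the strain OP433 at the fourth larval stage (L4), grown at 20 °C and fixed with 2% formaldehyde, and they form 2 groups: 2 ChIP libraries made with anti-GFP antibodies and 2 input libraries of total chromatin. Both groups carried the unc-119(ed3) mutation, whose locus is on chromosome III, and wgIs433, a transgene introduced by bombardment that holds hlh-30 fused to TY1, EGFP and FLAG tags beside a working copy of unc-119. The genotype names no change of the endogenous hlh-30 gene, so the antibody reports the tagged copy. Peaks from a strain without the tag were not analysed here, and no list of peaks for the input libraries was used.

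HLH-30 is a transcription factor with a basic helix-loop-helix and leucine zipper domain, and it is the worm counterpart of mammalian TFEB. Factors of this family bind E-box motifs as dimers, and HLH-30 has known roles in the transcription of lysosomal and autophagy genes, in the fasting response of fat stores, in lifespan and in host defence. On worm autosomes, the central region is known to be rich in conserved genes and poor in recombination, while the arms recombine more and hold more repeats, which makes position along the chromosome a natural way to describe binding. The coordinates are those of WormBase build WS180. No sequence or gene annotation of that build was used here, so the sites are named by coordinate.

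Chromosome III held 355 peaks in the list of replicate 1 and 343 in that of replicate 2, or 349 ± 8.49 peaks (SD, n = 2). The value deposited with each peak is the authors' q-value, the p-value of the peak caller adjusted for multiple testing, and strength is written below as −log10 q. Read counts are not part of the lists, and the depth is unknown. Nothing says whether the replicates were separate cultures, so their spread may be technical. Intervals of shares are 95% Wilson intervals and cover counting error only. No p-value was computed, because peaks of a chromosome are not independent and the design has a single group of 2 ChIP libraries. Differences between chromosomes are therefore set beside the spread between the replicates and were not tested.

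Peaks on chromosome III were packed more closely and were narrower than those of the other chromosomes. The combined list placed 42.4 peaks in each Mb of III, compared with 18.1 on IV, 24.1 on V, 27.1 on X, 28.5 on I and 31.4 on II. The intervals covered 2.77% of III, where the other 5 chromosomes ranged from 1.32% to 2.29%. In the replicates they covered 1.55% ± 0.0124 (SD, n = 2) of III, and on the chromosome nearest to it, X, 1.33% ± 0.00167 (SD, n = 2). That distance between III and X was larger than the spread between the replicates.

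Along the chromosome, binding was sparse on the left arm, dense in the middle, thin close to the right end and dense again at the right end. Of 10 equal segments of the length, numbered from the left, the first to the last held 33, 33, 65, 62, 74, 75, 70, 62, 41 and 69 combined peaks. Segments 3 to 8 together held 408 peaks (69.9%), against 69.9% in replicate 1 and 69.4% in replicate 2. A dense middle was not particular to III. Segment 6, the fullest on III, held 12.8% of its combined peaks. The same segment held 12.4% on I, 12.9% on II, 11.1% on IV, 18.5% on V and 5.01% on X. The fullest segment had 2.27 times as many peaks as the emptiest in the combined list, and the corresponding ratios were 2.67 and 2.82 in the replicates.

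The replicates followed the same outline. The segments of replicate 1 held 18, 19, 37, 44, 39, 42, 48, 38, 25 and 45 peaks. Those of replicate 2 held 17, 19, 32, 40, 41, 40, 48, 37, 24 and 45. No segment differed by more than 5 peaks between the replicates, and in each list segment 10 held more peaks than segment 9, by 1.68 times in the combined list, 1.80 times in replicate 1 and 1.88 times in replicate 2. With peaks up to 10 kb apart joined, segments 9 and 10 held 29 each, and the excess was gone.

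The ends of chromosome III were unequal. The outer 20% on the left held 66 combined peaks (11.3%) and the outer 20% on the right held 110 (18.8%). In the replicates the left share was 10.5% ± 0.0517 and the right share 19.9% ± 0.282 (SD, n = 2), so the gap between the arms exceeded the spread between the replicates. Chromosomes II and X also had more peaks on the right (98 against 41 and 117 against 80), while I, IV and V had more on the left in the combined list. On V the order was the opposite in each replicate list.

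**Figure D1:**
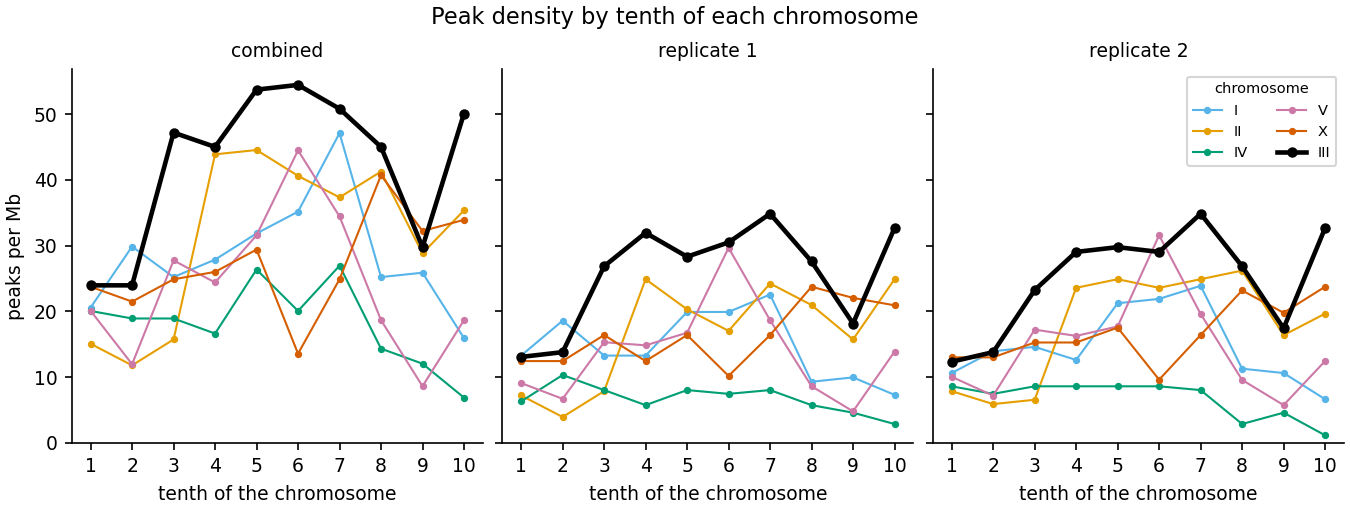
Peaks per Mb (vertical axis) in each of 10 equal segments of the length (horizontal axis) for the 6 chromosomes, in the combined list and each ChIP replicate, with chromosome III in black. In the combined list III was the densest chromosome in 8 of 10 segments and lay below another chromosome in segments 2 and 9.

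Set against the same segment of the other chromosomes, III ranked highest in 8 segments of the combined list, 7 of replicate 1 and 6 of replicate 2. In the combined list its lead was widest in segment 3, with 47.2 peaks per Mb against 27.8 on V, the next chromosome. It was also wide there in segment 10, with 50.1 against 35.4 on II. In each replicate list the lead was widest in segment 7, with 34.9 against 24.2 in replicate 1 and 34.9 against 24.9 in replicate 2, both on II. In segment 9 of the combined list III had 29.8 peaks per Mb and X had 32.2. In segment 2 of that list III had 24.0 and I had 29.9. Chromosome III ranked below X in segment 9 and below I in segment 2 of each of the 3 lists.

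The share of peaks in the central part, from 33.3% to 66.7% of the length, did not set III apart. It was 40.6% (237 of 584, 36.7 to 44.6), against 41% over all chromosomes. The replicates gave 39.7% ± 0.762 (SD, n = 2) on III, against 40.4% and 42.1% over all chromosomes in replicates 1 and 2, and the other chromosomes ranged from 29.0% on X to 48.5% on V in the combined list.

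The median −log10 q of a segment lay between 7.86 in segment 1 and 10.1 in segment 4. The strongest 10% of the peaks on III, 58 in number, fell in every segment, with 10 each in segments 7 and 10 and 2 each in segments 2 and 9. The median width of a segment ran from 441 bp in segment 6 to 547 bp in segment 8.

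In bins of 250 kb, the 56 bins of chromosome III held from 2 to 21 combined peaks, with a median of 10. Every bin held at least 1 peak in all 3 lists. The fullest 14 bins contained 233 peaks (39.9%) and the emptiest 14 contained 68 (11.6%). In the replicates the fullest 14 bins held 44.2% and 44.3% of the peaks. The variance of the bin counts was 2.07 times their mean, inside the range of the other chromosomes, from 1.65 on IV to 2.74 on II.

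**Figure D2:**
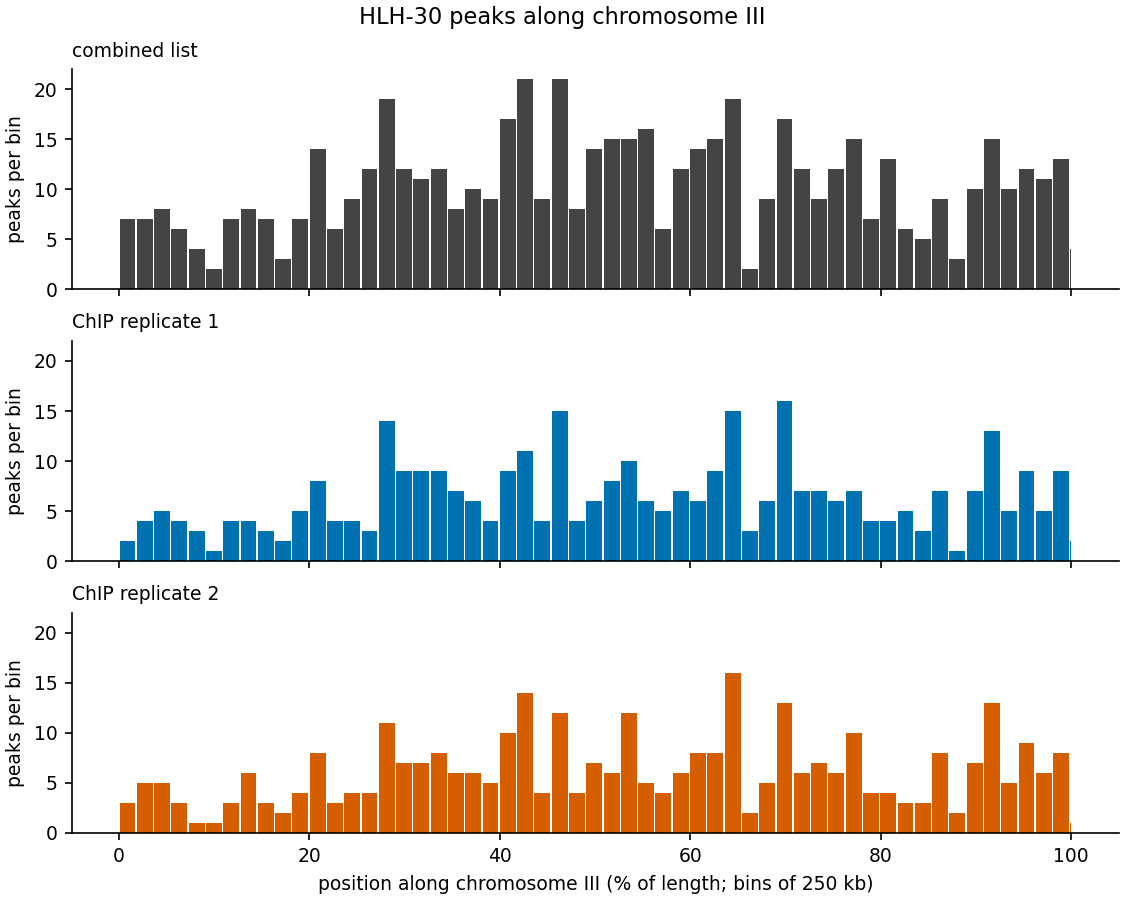
Number of HLH-30 peaks in each 250 kb bin (vertical axis) by position along chromosome III in percent of its length (horizontal axis), in the combined list and each ChIP replicate. The highest bar is 21 in the combined list and 16 in each replicate, in a different bin in each of the 3, and a bin of 2 combined peaks lies directly to the right of one of 19.

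The fullest bins lay between 28.1% and 69.9% of the length. The bins from 5750001 to 6000000 and from 6250001 to 6500000 held 21 combined peaks each. The first of them held 11 peaks in replicate 1 and 14 in replicate 2, and the other held 15 and 12. Between them, the bin from 6000001 to 6250000 held 9 combined peaks and 4 in each replicate. The combined counts of these neighbouring bins thus ran 21, 9 and 21. Of the 9 peaks between, 8 lay close together from 6133202 to 6170348, so that bin was not sparse throughout.

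Next came the bins from 3750001 to 4000000 and from 8750001 to 9000000, with 19 combined peaks each. In the replicates the former held 14 and 11 peaks and the latter 15 and 16. The bins from 5500001 to 5750000 and from 9500001 to 9750000 held 17 each, the latter with 16 and 13 in the replicates. The steepest step between neighbouring bins was at 9000000, where the count fell from 19 to 2 in the combined list, from 15 to 3 in replicate 1 and from 16 to 2 in replicate 2. The 2 peaks of the sparse bin beyond that step were unlike. One had −log10 q of 61.1 and was found in both replicates, and the other, from 9152854 to 9153333, had 4.42 and was found in neither.

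The bin counts of the replicates ran together. They were equal in 18 of 56 bins, within 1 peak of each other in 43, and never more than 3 apart. Across the 56 bins Pearson's r was 0.93 and Spearman's rho 0.93, given as a description, since the lists share the strain, the protocol and the peak caller.

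The longest stretch without a peak was shorter on chromosome III than on each other chromosome. The longest gap between combined peaks was 234.2 kb, from 12015872 to 12250104 in segment 9. On the other chromosomes the longest gap ran from 427.7 kb on I to 833.0 kb on II. In the replicates the longest gap on III was 313.5 kb ± 34.4 (SD, n = 2), and the lowest among the other chromosomes was 443.8 kb ± 1.06 on X (SD, n = 2). The gap to X exceeded the spread between the replicates. Gaps of 100 kb or more numbered 22 on III, compared with 32 on II and 59 on V. With a single replicate the count on III was 34 or 36, and the lowest elsewhere was 44 or 42, both on II.

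The next longest gaps ran from 889640 to 1080497 (190.9 kb), from 11255272 to 11444574 (189.3 kb), from 188766 to 343476 (154.7 kb) and from 3120312 to 3271558 (151.2 kb). None of these 5 stretches contained a peak of either replicate. This was nearly fixed beforehand, since 353 of 355 peaks of replicate 1 and 342 of 343 of replicate 2 overlapped a combined peak. The borders of the stretches differed. The gap from 889640 was flanked by strong peaks found in both replicates, with −log10 q of 43.3 on its left and 60.1 on its right. The longest was bordered on its left by a peak with −log10 q of 3.99, found in neither replicate, and on its right by one of 16.8.

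**Figure D3:**
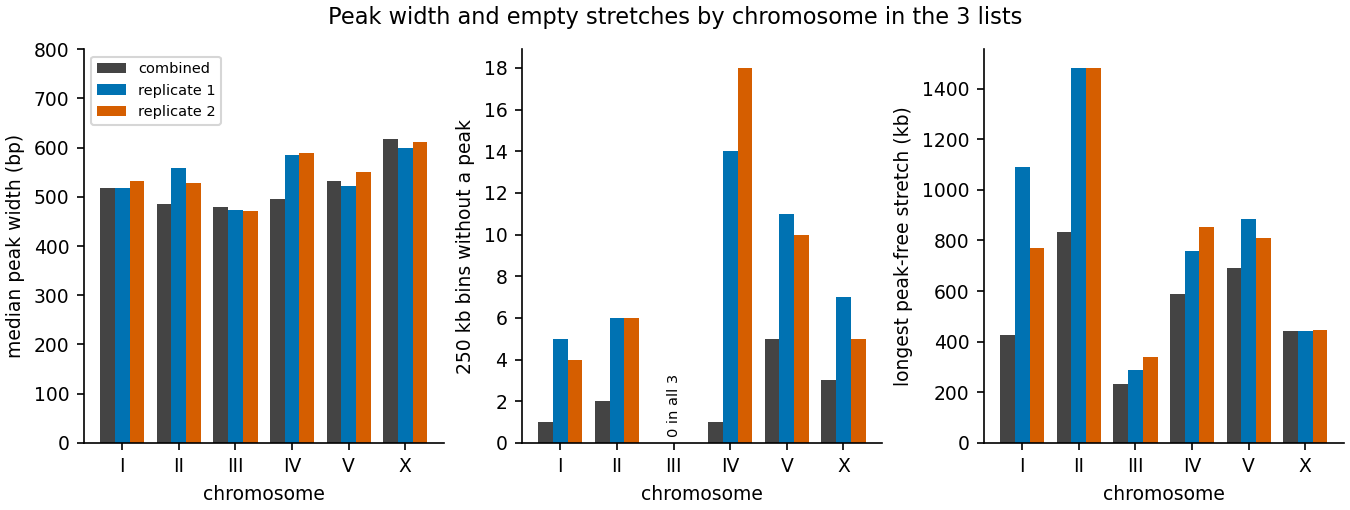
Median peak width in bp, number of 250 kb bins without a peak, and longest peak-free stretch in kb (vertical axes, left to right) for each chromosome (horizontal axis), with 1 bar for each of the 3 lists. Chromosome III has the narrowest median peak, no empty bin and the shortest longest gap in each list.

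The other chromosomes had 1 to 5 empty bins in the combined list, 5 to 14 in replicate 1 and 4 to 18 in replicate 2, against 0 on III. This count depends on where the bins start. With the bins moved by 125 kb, III had 0 empty bins in the combined list, as did I, and 1 and 2 in the replicates, while the lowest counts elsewhere were 3 in each replicate, both on X. Empty bins did not simply follow peaks per Mb. In the combined list IV, the least dense with 18.1 peaks per Mb, had 1, and V, with 24.1, had 5. In the replicates IV had the most, with 14 and 18. How far the density of III bears on its count was not tested.

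Neighbouring peaks on III were often close. The median gap was 11.1 kb in the combined list, 18.5 kb in replicate 1 and 19.2 kb in replicate 2. The 25% shortest gaps of the combined list were at most 2196 bp, and the 25% longest were at least 32.5 kb. Gaps under 1 kb made up 81 of 583 (13.9%, 11.3 to 16.9), and those of 10 to 50 kb were the largest class with 224 (38.4%, 34.6 to 42.4). The smallest gap was 200 bp, which was also the smallest over all chromosomes.

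**Figure D4:**
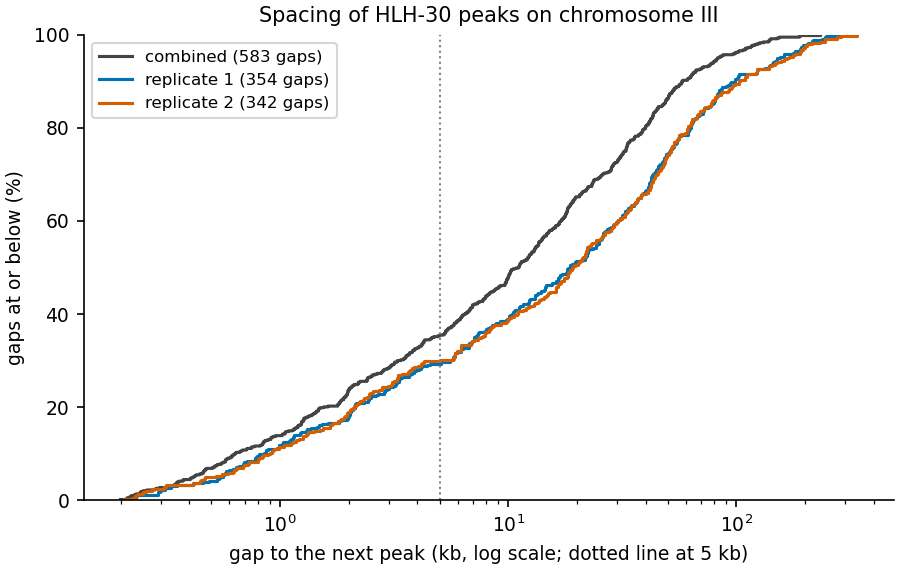
Share of gaps (vertical axis, in percent) at or below a given length in kb (horizontal axis, log scale) between neighbouring peaks on chromosome III, 1 line for each list. The lines of the replicates lie on each other, with medians of 18.5 and 19.2 kb, and the combined list, with more peaks, runs above them with a median of 11.1 kb.

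Another peak lay within 5 kb of 331 of the 584 (56.7%, 52.6 to 60.6), against 50.3% over all chromosomes. The share was 48.5% in replicate 1, against 43.2% over all chromosomes, and 50.4% in replicate 2, against 45.2%, which gives 49.4% ± 1.40 (SD, n = 2). Chromosome II came close, with 54.4% in the combined list and 48.5% ± 3.69 in the replicates. It lay below III in replicate 1, with 45.9%, and above III in replicate 2, with 51.1%. The spread between the replicates covered the difference between III and II.

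Peaks with a neighbour were also stronger and wider. The 331 peaks with another within 5 kb had a median −log10 q of 10.1 and a median width of 528 bp, against 7.46 and 420 bp for the 253 without. Of the former, 55.3% (49.9 to 60.6) were found in both replicates, and of the latter 42.7% (36.7 to 48.8). The replicate lists gave the same order, with medians of 8.23 against 7.25 in replicate 1 and 7.35 against 6.66 in replicate 2. Whether the caller divided broad bound regions into close peaks was not tested.

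When peaks no more than 10 kb apart were joined, 137 groups formed with 416 members (71.2% of 584), and 168 peaks stayed single. The grouped share elsewhere ran from 51.6% on IV to 66.5% on II and 67.6% on I. The distance was fixed, and the part of peak density in these shares was not separated. There were 68 groups of 2, 31 of 3, 20 of 4 and 18 of 5 or more. The replicate lists, with fewer peaks, gave fewer groups, although the largest had 8 peaks in each. Replicate 1 had 76 groups, which held 60.3% of its peaks, and 6 of them had 5 or more. Replicate 2 had 80 groups with 61.8%, and 5 of 5 or more. The groups of 5 or more held 107 peaks, or 18.3% of those on III, compared with a range from 3.16% on IV to 17.1% on X elsewhere. The largest groups on III had 8 peaks, and there were 5 of them, found in segments 5, 6 and 10. On the other chromosomes the largest group had from 5 peaks on IV to 9 on I, II and V.

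The tightest of the groups of 8 was near the right end, from 13056629 to 13072273. It spanned 15.6 kb, of which 48.8% lay inside peaks, and each replicate list also held 8 peaks there. Its members had a median −log10 q of 28.4. The 4 strongest lay from 13060848 to 13061507, from 13061721 to 13063287, from 13067936 to 13068893 and from 13070219 to 13072273, with −log10 q between 41.0 and 44.4. Of the 8 peaks, 7 were found in both replicates and 1 in replicate 1 alone. This stretch therefore combined close spacing with strong and shared peaks.

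A second group of 8 in segment 10, from 12549364 to 12583923, was looser and more uneven. It spanned 34.6 kb and held the fifteenth and nineteenth strongest peaks of the chromosome, with −log10 q of 62.7 and 59.0. Its other 6 peaks ran from 4.78 to 23.9. In the replicates the strongest of the group reached 39.2 and 32.8. Of the 8 peaks 5 were in both replicates, 1 in each replicate alone and 1 in neither.

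The remaining groups of 8 lay in the central part of the chromosome and were weaker. The group from 7710023 to 7737949 held a peak of 53.4 and one of 41.9, but its median −log10 q was 7.09 and 4 of its 8 peaks were in neither replicate. The group from 6341966 to 6363068 had a strongest peak of 25.1 and a median of 8.47. In the group from 6133202 to 6170348 the strongest peak had 10.0, and only 3 of 8 peaks were in both replicates. The strongest members of the 5 groups of 8 thus ranged from 10.0 to 62.7.

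The next largest groups had 6 peaks, and of the pair the one with the smaller q-value lay from 8780331 to 8802669. Its peaks were all found in both replicates, with −log10 q from 12.6 to 120.4 and a median of 31.3. Its strongest member, from 8799684 to 8802669, was the second strongest on the chromosome. In each replicate list this stretch was divided into 8 peaks. The other group of 6, from 5936946 to 5952126, had a strongest peak of 74.7 and a median of 17.8, with 5 peaks in both replicates and 1 in replicate 2 alone.

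Peaks on III were narrow. The median width was 480 bp in the combined list, with the middle 50% of the peaks between 372 and 721.5 bp, and 473 and 471 bp in the replicates. Every other chromosome had a wider median in each list, although II came close in the combined list with 485 bp. In the replicates the median was 472 bp ± 1.41 on III and 525 bp ± 11.3 on I, the next narrowest (SD, n = 2), a difference beyond the replicate spread. Among peaks found in both replicates the median was 573 bp on III and from 647.5 bp on II to 787 bp on IV elsewhere. Their median −log10 q was 16.2 on III and ranged from 16.2 to 21.4 on the others. Such peaks on V also had a median of 16.2, with a median width of 707 bp. Over all combined peaks the median −log10 q was 9.08 on III, against 7.45 to 9.11 on the other chromosomes. Whether the narrower width on III goes with strength was not tested.

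Broad intervals were scarce. On III 80 peaks (13.7%) exceeded 1000 bp, against 14.4% to 20.9% on the other chromosomes, and 20 (3.42%) exceeded 2000 bp, against 4.20% to 5.22%. The widest peak of III measured 3895 bp, while the widest of each other chromosome ranged from 4893 bp on IV to 15906 bp on II. The order was the same in the replicates, where the widest peaks of III had 2985 and 2338 bp and the lowest maxima elsewhere were 4612 and 2878 bp.

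Width and strength rose together on III, with Spearman's rho of 0.55 over the 584 combined peaks, 0.49 in replicate 1 and 0.44 in replicate 2, as a description over peaks of the same library. The 194 peaks of up to 400 bp had a median −log10 q of 5.50 and 22.2% (16.9 to 28.5) were found in both replicates. The 20 peaks over 2000 bp had a median of 42.0, and 18 of them (90%, 69.9 to 97.2) were found in both. These 20 peaks held 14.1% of all bases inside peaks on III.

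The 5 widest peaks were spread widely in strength. The widest, from 6419439 to 6423333, had −log10 q = 75.8 and ranked 8 on the chromosome. It covered 2 peaks in each replicate, of which the stronger reached 21.3 and 38.0. The next, from 9700856 to 9704738, was 3883 bp wide but ranked 121, with −log10 q of 18.0, and had 8.63 and 5.83 in the replicates. Those from 8981894 to 8985499 (3606 bp), from 832743 to 836266 (3524 bp) and from 7728151 to 7731474 (3324 bp) had 40.7, 48.2 and 53.4.

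The 20 strongest peaks of chromosome III ranged from 57.2 to 138.4 in −log10 q and were found in both replicates without exception. They stood between ranks 12 and 97 of the whole combined list. Their median width was 1142.5 bp, and 11 of them exceeded 1000 bp. The central part of the chromosome held 10 of the 20, and every segment but segment 9 held at least 1. Of the 20, 16 were partnered by one of the 20 strongest peaks of replicate 1 on III and 17 by one of the 20 strongest of replicate 2. The combined and replicate lists are not independent, so the presence of all 20 in both replicates is only a description.

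The strongest site of all lay alone in segment 8. This peak, from 10758883 to 10759824, had q = 4.02e-139 in the combined list, 4.24e-99 in replicate 1 and 1.12e-83 in replicate 2, and it ranked first on III in all 3. It was only 942 bp wide, and its nearest neighbour was 16.1 kb away (16120 bp). The lead over the second peak was larger in the replicates than in the combined list. The second peak, from 8799684 to 8802669, had −log10 q of 120.4 in the combined list but 41.7 and 43.2 in the replicates, where it was divided into 2 peaks each.

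The next peaks in rank kept their places more closely. The peak from 9618777 to 9620646 had −log10 q of 105.0 in the combined list, 54.1 in replicate 1 and 53.2 in replicate 2. The peak from 4899132 to 4900213 had 99.1, 55.9 and 52.5. They exchanged ranks 2 and 3 on the chromosome between the replicates.

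Segment 4, from 4131444 to 5508591, carried 5 of the 20, more than any other segment. Besides the peak at 4899132, these began at 4281766, 4648813, 4237482 and 5502620, with −log10 q of 84.9, 83.7, 63.1 and 57.2. The lead depended on the cut at 20. Of the strongest 10% of the peaks on III, segment 4 held 6, while segments 6, 7, 8 and 10 held 8, 10, 7 and 10. In the same segment 39 of 62 combined peaks (62.9%, 50.5 to 73.8) were found in both replicates, the highest share of the 10. Its interval overlapped those of the other segments, whose shares started at 41.5% (30.4 to 53.7) in segment 3.

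Segment 7 carried 4 of the 20. Beside the peaks at 8799684 and 9618777 these were the intervals from 8656860 to 8658771 and from 9050999 to 9054266, with −log10 q of 69.2 and 61.1. The latter was 3268 bp wide and covered 3 peaks of replicate 1 and 2 of replicate 2, and its strongest parts ranked only 56 and 30 on III in the replicates. It was the lowest ranked of the 20 in both.

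The left arm held few peaks but some strong ones. In segment 1, the peak from 349420 to 350308 had −log10 q of 73.9 in the combined list and 44.1 and 41.8 in the replicates. The peak from 1080498 to 1080924 had 60.1, 33.7 and 36.1. It measured 427 bp, less than each of the others in the 20, and forms the right border of the gap that began at 889640. In segment 2, the peak from 1924742 to 1925685 had 61.5, 33.6 and 27.7. Of the 66 peaks in segments 1 and 2, 3 were among the 20 strongest, against 20 of 584 over the whole chromosome. That count is too small to set the left arm apart.

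Of the 584 combined peaks, 291 (49.8%, 45.8 to 53.9) overlapped a peak of both replicates by at least 1 bp, against 44.5% over all chromosomes. The share was 50.3% on X and 47.3% on V, inside the interval of III. It was lower on II (42.5%, 38.2 to 47.0), I (42.0%, 37.4 to 46.7) and IV (27.5%, 22.9 to 32.7). Only the interval of IV lay clear of that of III. A further 53 peaks (9.08%) were found in replicate 1 alone, against 8.31% over all chromosomes, and 45 (7.71%) in replicate 2 alone, against 9.17%. The remaining 195 (33.4%, 29.7 to 37.3) were in neither replicate, against 38.1%.

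These classes differed in strength and width. Peaks in both replicates had a median −log10 q of 16.2, those in replicate 1 alone 6.99, those in replicate 2 alone 7.56, and those in neither 4.65. The medians of width were 573, 402, 496 and 383 bp. The range of strengths did overlap, since the weakest peak found in both had 5.50 and the strongest found in neither had 9.12. Strength in the combined list and presence in the replicate lists are not independent, since nearly all replicate peaks overlapped a combined peak.

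**Figure D5:**
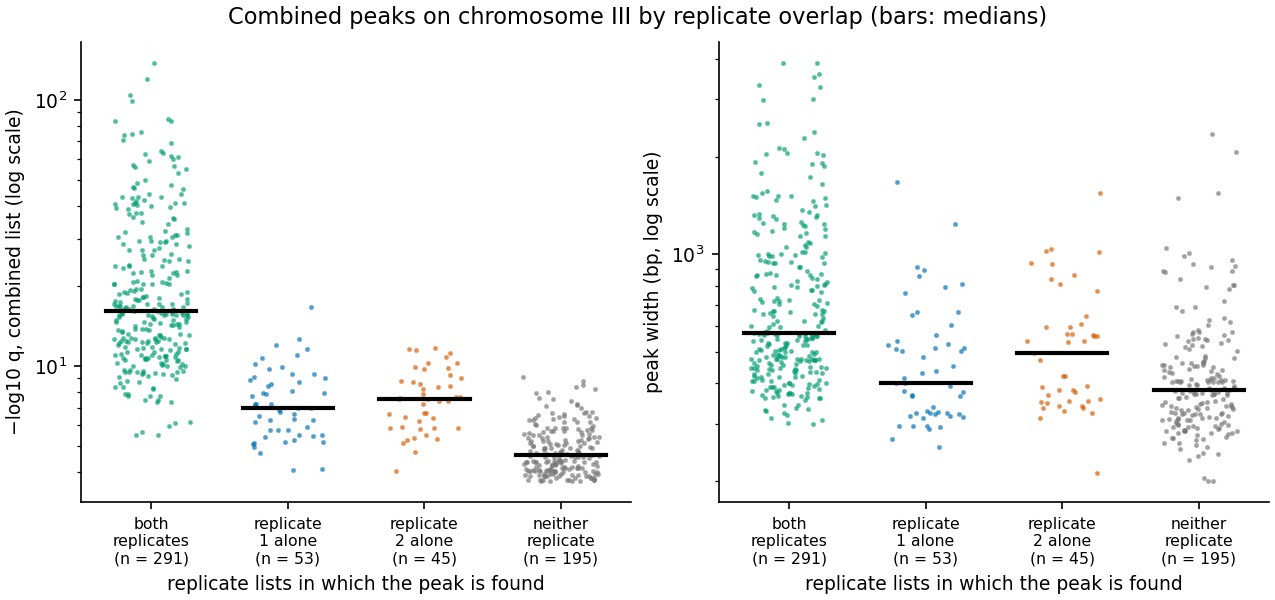
Strength as −log10 q (left, log scale) and width in bp (right, log scale) of the 584 combined peaks on chromosome III, with 1 point for each peak and bars at the medians, by the replicate lists in which the peak was found (horizontal axis). Peaks found in both replicates have a median strength of 16.2 and those found in neither have 4.65.

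Ranked by strength, the strongest 20% of the peaks on III (117) were all found in both replicates. In the next 20% 109 of 117 were (93.2%, 87.1 to 96.5), and in the middle 20% 59 of 117 (50.4%, 41.5 to 59.3). In the weakest 20% the count was 0 of 116. Taking 3 counts as the limit that a count of 0 allows, the share may reach 2.59%, and the Wilson interval ends at 3.21%. The turn from shared to unshared peaks thus lay between −log10 q of 11.1 and 7.07, the limits of the middle class. Much of this order was given beforehand, because the combined and replicate lists are not independent of each other.

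The strongest peaks without a partner were modest. They ran from 5837761 to 5839833 (9.12), from 7644132 to 7644597 (8.77), from 13258648 to 13259055 (8.48), from 8358152 to 8358484 (8.37) and from 9912450 to 9913369 (8.22), with −log10 q in parentheses. The first was 2073 bp wide, and each of the 5 had another combined peak within 2 kb, from 297 to 1959 bp away. Over all 195 peaks in neither replicate, 76 (39.0%, 32.4 to 46.0) lay within 5 kb of a replicate peak, and the median distance was 7.99 kb. A combined peak found in both replicates lay within 5 kb of 64 (32.8%, 26.6 to 39.7). Of the 291 peaks in both replicates, 131 (45.0%, 39.4 to 50.8) had another such peak within 5 kb. Closeness to shared peaks was therefore not particular to peaks in neither replicate.

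Taken from the side of the replicates, 298 of the 355 peaks of replicate 1 on III overlapped a peak of replicate 2 (83.9%, 79.8 to 87.4), against 84% over all chromosomes. Conversely, 295 of the 343 peaks of replicate 2 overlapped one of replicate 1 (86.0%, 81.9 to 89.3), against 82.8%. The unshared peaks were weaker, with medians of 4.82 against 8.44 in replicate 1 and 4.60 against 7.70 in replicate 2. The strongest unshared peak lay from 13359758 to 13360210 in replicate 1, with −log10 q of 8.49.

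All but 3 replicate peaks on III were present in the combined list. From replicate 1, 353 of 355 were (99.4%, against 99.7% over all chromosomes), and from replicate 2, 342 of 343, against 99.6%. The absent peaks lay from 5814417 to 5815505 and from 9867797 to 9868346 in replicate 1, with −log10 q of 4.12 and 3.95, and from 10214256 to 10214810 in replicate 2, with 3.91. All 3 were near the threshold of their lists, had no partner in the other replicate, and had a combined peak 667, 5702 and 1657 bp away.

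The combined list mostly kept the peaks whole. On III 8 combined peaks held 2 or more peaks of replicate 1, and 10 held 2 or more of replicate 2. No replicate 1 peak spanned more than 1 combined peak, and 4 peaks of replicate 2 did. This left 272 combined peaks with a single partner of their own in each replicate.

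Across these 272 sites the replicates ranked binding alike, with Spearman's rho of 0.81 and Pearson's r of 0.96 between their −log10 q, or r of 0.94 without the 2 sites farthest from the median. These are descriptions, since the sites share their libraries and their widths. Replicate 1 gave the stronger value at 170 sites (62.5%, 56.6 to 68.0), and the median difference, replicate 1 minus replicate 2, was 0.60 with a median absolute difference of 1.64. The largest differences were at the strongest peak, with 98.4 against 82.9, and at the peak from 5939329 to 5941373, with 44.6 against 30.5. The share of sites stronger in replicate 1 ranged from 53.8% on V to 62.7% on I elsewhere.

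The position of these sites was close between the lists. Partner centres in the replicates lay a median of 30.8 bp apart, and 236 of 272 (86.8%) were within 100 bp. The combined peaks were wider than their partners, with a median of 560.5 bp against 475 bp in replicate 1 and 466 bp in replicate 2, and the replicate peak was the narrower at 235 and 234 of the 272 sites. The combined −log10 q was the higher at 271 sites against each replicate, by a median of 7.15 over replicate 1 and 8.28 over replicate 2.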

How the data were processed

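Peaks were called with PeakSeq on WormBase build WS180, per the file headers and the source column of the GFF version 3 lists. For the PeakSeq version, the aligner, the control, the filters and the way of combining replicates, nothing is stated in the labels or headers. The deposited value of each peak is a q-value, from which −log10 q was computed. Depth is unknown. The largest q-values on III were 0.000198 in the combined list, 0.000124 in replicate 1 and 0.000133 in replicate 2.

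The length of III, 13771478 bp, is a lower bound, the end of its last peak over the 3 lists. Peaks were assigned to segments and 250 kb bins by their centres, the last bin being partial. Overlap means at least 1 bp, and a partner is the strongest overlapping peak. Named are the 20 strongest and 5 widest peaks, the 6 groups with most peaks (ties by the smallest q-value), the 5 longest gaps, the 5 fullest bins with ties, the 5 strongest peaks in neither replicate and the replicate peaks absent from the combined list. Others were chosen after their values were seen. Members, measures and lists were chosen with earlier results of these data known. Alternatives were a stricter q-value, other overlaps, each replicate alone, peaks in both replicates, joined peaks, moved bins and another span. Python 3.11.15, numpy 2.4.6, pandas 2.3.3, scipy 1.17.1 and matplotlib 3.10.9 were used, and the functions were tested on simulated data. No sequence is printed, because no genome of this build was used.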

Additional observations from a re-analysis of the deposited data

How the results depend on the processing

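Of 43 alternatives for 10 results on chromosome III, 15 stayed within the replicate spread, the counting interval or 1.5 times a count, and 28 moved further. Density fell from 42.4 to 22.7 peaks per Mb in the stronger 50% of the combined list, 21.1 among peaks in both replicates and 22.1 after joining neighbours within 10 kb, and III stayed the densest chromosome in each. With 1 replicate left out it was 24.9 to 25.8 peaks per Mb. The central share, 40.6% as reported, was 39.2% for peaks in both replicates, 35.7% with joined peaks and 39.2% to 40.2% with 1 replicate left out. The share with a neighbour within 5 kb was 46.3% of the stronger 50%, 45.0% of peaks in both replicates and 48.5% to 50.4% with 1 replicate left out. The corresponding median gaps were 20979, 24549.5 and 18458 to 19191 bp, and the median widths 568, 573 and 471 to 473 bp. The fullest 250 kb bin held 13 peaks found in both replicates, 10 joined peaks, and 16 to 16 peaks with 1 replicate left out. In the stronger 50% of the list 1 bin was empty, and with 1 replicate left out 0 to 0 were, an alternative chosen after seeing the data. The share found in both replicates was 44.1% between the stronger 50% of each list and 40.2% with centres within 200 bp, and the share in neither was 38.4% with centres within 200 bp. Replicate 1 peaks found in replicate 2 were 78.9% and 73.8% under these settings. Stricter lists hold fewer peaks by construction, which widens gaps and lowers counts. No paired analysis was possible because peak lists were used for 1 group only, ChIP, while its replicate numbers recur in the other, input.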

Other observations

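A second crowded stretch followed the group of 8 peaks that ended at 12583923, and it was chosen after its values were seen. From 12598124 to 12617772 it held 5 peaks, all found in both replicates, with −log10 q between 28.8 and 48.8 and a median of 40.8. The bin around it, from 12500001 to 12750000, held 15 combined peaks with a median −log10 q of 28.8, of which 12 were found in both replicates, and 13 peaks in each replicate list. The next bin to the right held 10 combined peaks with a median of 8.70.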
